A study of Mus musculus with 6 samples.

Results

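The 10 genes described here encode feedback inhibitors of the MAP kinase pathways. They are 5 MAP kinase phosphatases (Dusp1, Dusp4, Dusp5, Dusp6 and Dusp8), 3 Sprouty proteins (Spry1, Spry2 and Spry4) and 2 Spred proteins (Spred1 and Spred2). Each was found by its symbol in the mouse gene annotation, and all 10 had a row among the 52550 genes counted. All 10 were also among the 14386 genes that passed the filter on low counts and were tested. The transcripts were measured in cultured cardiomyocytes of mice on postnatal day 1, in 3 control libraries and 3 GR-cKO libraries. In GR-cKO mice the gene of the glucocorticoid receptor, Nr3c1, is deleted in cardiomyocytes, and the control genotype is called ctrl in the labels. Both groups were handled alike: the tissue was dissociated with collagenase and pancreatin, the muscle cells were enriched with magnetic beads, and they were plated in medium with 10% fetal bovine serum and 5% horse serum. After 48 h this medium was changed and the cells spent 24 h without serum, so the levels below are those of serum-deprived cells. The Cre driver, the deleted exon, the sex of the pups and the number of animals behind a library are not stated in these labels. They call the libraries biological replicates, with no word on whether animals or cultures were separate. Every p-value thus measures the spread among these 6 libraries alone, part of which may be technical.

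Growth factor receptors activate RAS, RAF, MEK and ERK in turn, and stress signals activate the related kinases p38 and JNK. Active ERK induces several of its own inhibitors, which closes a negative feedback loop. The dual-specificity phosphatases remove the phosphates that activate a MAP kinase. Sprouty and Spred proteins act upstream, between the receptor and RAF. In heart muscle the pathway is known for its part in growth, hypertrophy and the division of young cardiomyocytes. Dusp1 is also known as a gene that glucocorticoids induce in many cell types.

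Levels are CPM (a gene's counts relative to the total of its library) scaled by TMM factors, given as mean ± SD over 3 libraries. The libraries are 3' tag libraries, in which a transcript gives a tag near its polyadenylated end whatever its length, so no length correction was made. How well CPM compare between different genes was not tested, and orders and sums of levels are descriptions. Fold changes are GR-cKO over control on the log2 scale, with the standard error (SE) and, where given, the 95% interval. A gene was called when edgeR's quasi-likelihood test gave an adjusted p under 0.05 over all tested genes.

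The libraries held 19371508 to 22583596 gene counts each. Nr3c1 itself read 68.2, 73.9 and 72.4 CPM in the control libraries and 46.2, 42.8 and 44.1 CPM in the GR-cKO libraries, a log2 fold change of -0.69 ± 0.09 (SE, edgeR adjusted p = 3.3e-06). The labels do not say whether its tag lies inside the deleted stretch, so the remaining level does not measure how complete the deletion was. Xist stood at 271 to 293 CPM in the control libraries and at no more than 0.0996 CPM in the GR-cKO libraries, so sex and genotype cannot be told apart in any result here. None of the 10 genes lies on a sex chromosome. The cardiomyocyte markers were abundant, with Tnnt2 at 8251 ± 124 CPM and Myh6 at 4364 ± 169 CPM in control. Their sum over 8 genes was 18603 to 19582 CPM in the controls and 21306 to 21872 CPM in GR-cKO. The cultures also held RNA of other cells. The sum of 8 fibroblast markers, led by Col1a1 and Col1a2, was 3609 to 3813 CPM in the controls and 4721 to 4840 CPM in GR-cKO. That of 8 smooth muscle and pericyte markers, of which Acta2 is also made by immature cardiomyocytes, was 3742 to 3854 against 4448 to 4668 CPM, and that of 8 endothelial markers, led by Pecam1, was 765 to 821 against 877 to 900 CPM. The 8 leukocyte markers, led by Lyz2, summed to 13.3 to 17.7 CPM in the controls and 34.9 to 54.9 CPM in GR-cKO, and no marker of any list was at 0 in all 6 libraries. Of the 8 genes in each list, those called higher in GR-cKO numbered 5 for cardiomyocytes, 4 for fibroblasts, 6 for endothelium, 6 for smooth muscle and pericytes and 2 for leukocytes (of 4 tested), and those called lower numbered 1, 1, 1, 0 and 0. Over all tested genes 7.63% were called higher and 7.19% lower. The 6 epicardial markers summed to 95.9 to 101 CPM in the controls and 92.5 to 109 CPM in GR-cKO, but 2 were called higher and 2 lower. Their sum thus hides changes in both directions, such as Krt19 from 8.45 ± 1.42 to 41.4 ± 3.96 CPM and Tbx18 from 65.5 ± 2.86 to 44.7 ± 3.99 CPM. The 5 neural markers summed to 23.2 to 24.4 CPM in the controls and 14.9 to 21.9 CPM in GR-cKO, and of the 3 tested 0 were called. The part of these cells in the results below was not tested.

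Of the 10 feedback inhibitors, 1 was called higher in GR-cKO (Dusp1) and none was called lower. Over all tested genes 14.8% were called, 7.63% higher and 7.19% lower, so 1 call among 10 genes is near the background. At an unadjusted p under 0.05, 3 were higher (Dusp1, Dusp6 and Dusp8) and 0 were lower, and DESeq2 called 1 higher and 0 lower. The share of all tested genes at that unadjusted p was not taken, so these 3 are not read as a trend. The log2 fold change was above 0 for 7 and below 0 for 3. Its median was 0.11, against -0.01 over all tested genes. In size, the median change of the 10 genes was 0.18 on the log2 scale, against 0.20 over all tested genes. Scaling by the ERCC spike-in RNAs moved the median of all tested genes from -0.01 to 0.09 and changed the split of all calls from 1097 higher and 1035 lower to 1355 higher and 522 lower, and under it too 1 of the 10 was called higher and 0 lower. In bulk RNA, fewer cells that express a gene and less of its RNA per cell cannot be told apart.

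**Figure D1:**
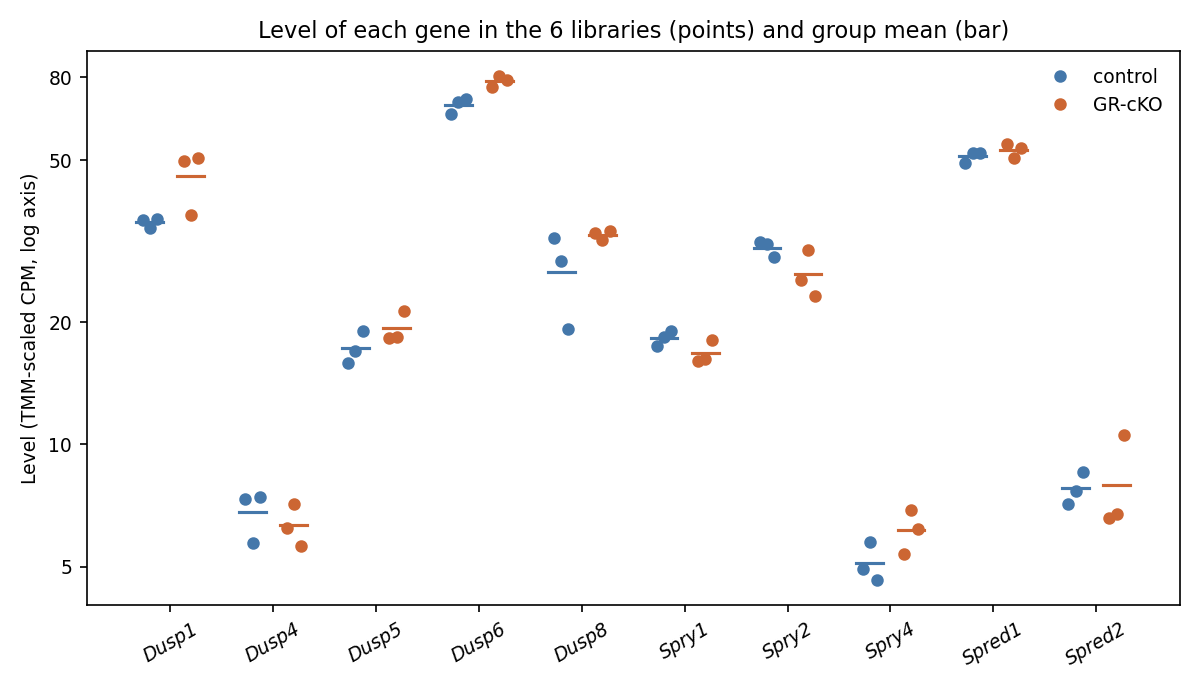
Level of the 10 feedback inhibitors in TMM-scaled CPM on a log axis, with control libraries in blue, GR-cKO libraries in orange and a bar at each group mean. The genes span from Spry4, at 5.11 ± 0.581 CPM in control, to Dusp6, at 68.5 ± 3.07 CPM, and the groups are apart for Dusp1 and Dusp6 and overlap for the other 8.

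Dusp1 (ENSMUSG00000024190, GRCm38 chromosome 17, 26505590 to 26562128, minus strand) encodes a nuclear phosphatase of p38, JNK and ERK that is made within minutes of a stimulus. Its levels were 35.7, 34.0 and 35.9 CPM in the controls and 49.7, 36.7 and 50.6 CPM in GR-cKO. GR-cKO replicates 1 and 3 stood well above the controls, while GR-cKO replicate 2 lay just above the highest of them, so the groups did not overlap. The means were 35.2 ± 1.01 and 45.7 ± 7.78 CPM, a 1.30-fold higher level with an interval of 1.10 to 1.53 (log2 fold change 0.38 ± 0.11 SE, edgeR adjusted p = 0.0247). The coefficient of variation was 2.88% in control, where counting alone would give 3.70%, and 17.0% in GR-cKO, where counting alone would give 3.26%. The call did not hold without every library. Dusp1 was past the threshold in 2 of the 6 fits that left out 1 library, those without control replicate 3 (adjusted p = 0.0496) and without GR-cKO replicate 2 (adjusted p = 0.00271). The adjusted p was 0.0521 without control replicate 1, 0.0972 without control replicate 2, 0.133 without GR-cKO replicate 1 and 0.119 without GR-cKO replicate 3, with log2 fold changes of 0.30 to 0.51 over the 6 fits. An annotated Dusp1 isoform runs into an exon of Ergic1 on the opposite strand, 55899 bases from the 3' end of Dusp1. Ergic1 stood at 123 ± 8.01 CPM in the controls and 108 ± 1.32 CPM in GR-cKO (log2 fold change -0.19, edgeR adjusted p = 0.106). Whether reads of Ergic1 entered the Dusp1 counts was not tested.

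**Figure D2:**
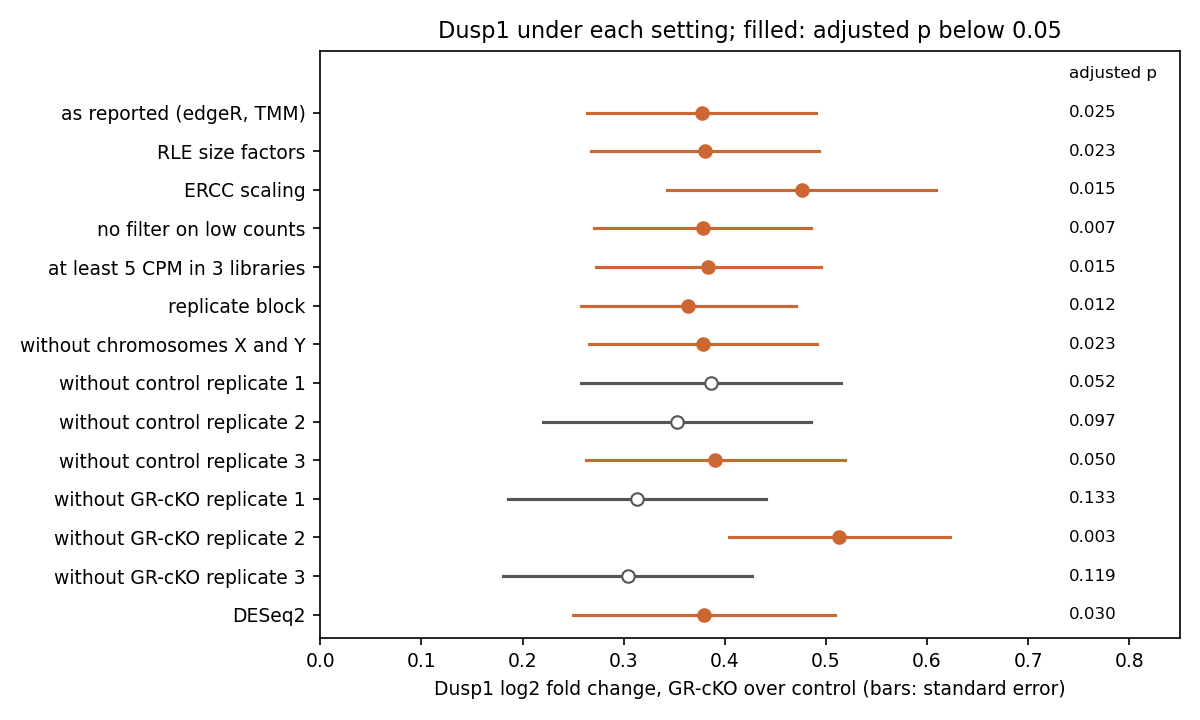
Log2 fold change of Dusp1, GR-cKO over control, under the reported fit and each alternative (bars are standard errors, filled points have an adjusted p below 0.05, which is printed at the right). The estimate lies between 0.30 and 0.51 throughout, and the 4 open points are fits that leave out 1 library.

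Dusp4 and Dusp5, the other nuclear and inducible phosphatases among the 10, did not pass the test. Dusp4 (ENSMUSG00000031530, chromosome 8, 34807297 to 34819894, plus strand) acts on ERK and JNK. It was one of the 3 genes with the lowest levels, with 109 to 153 counts a library, and read 7.34, 5.72 and 7.41 CPM in the controls and 6.23, 7.12 and 5.61 CPM in GR-cKO. The groups overlapped, and the log2 fold change of -0.11 had an interval from -0.55 to 0.34. Dusp5 (ENSMUSG00000034765, chromosome 19, 53529109 to 53542431, plus strand) is specific for ERK. It read 15.9, 17.0 and 19.0 CPM in the controls and 18.3, 18.4 and 21.3 CPM in GR-cKO. Control replicate 3 lay within the range of the GR-cKO libraries (log2 fold change 0.16 ± 0.13 SE, edgeR adjusted p = 0.506).

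Dusp6 (ENSMUSG00000019960, chromosome 10, 99263231 to 99267489, plus strand) encodes the cytoplasmic phosphatase specific for ERK, whose transcript is widely read as a gauge of ERK signalling. It was the most abundant of the 10 in every library. The levels were 65.1, 69.6 and 70.9 CPM in the controls and 75.9, 80.7 and 79.1 CPM in GR-cKO, with 1357 to 1679 counts a library. All GR-cKO libraries stood above all controls. The difference was small, from 68.5 ± 3.07 to 78.5 ± 2.46 CPM, and it missed the threshold over all genes (log2 fold change 0.20 ± 0.08 SE, interval 0.03 to 0.36, edgeR adjusted p = 0.115). Groups that did not overlap were found for 2 of the 10 genes, Dusp1 and Dusp6, and for 29.9% of all tested genes.

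Dusp8 (ENSMUSG00000037887, chromosome 7, 142079490 to 142095843, minus strand) encodes a phosphatase that prefers JNK and p38. Its control libraries were the most spread among the 10 genes, at 32.2, 28.2 and 19.3 CPM, while the GR-cKO libraries were close together at 33.1, 31.8 and 33.6 CPM. Control replicate 1 lay within the GR-cKO range and control replicate 3 far under it, at 390 counts. The control coefficient of variation was 25.0%, against 4.25% from counting alone. The log2 fold change of 0.31 ± 0.14 (SE, edgeR adjusted p = 0.159) fell to 0.12 (adjusted p = 0.603) without control replicate 3. It rose to 0.47 (adjusted p = 0.0332) without control replicate 1.

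**Figure D3:**
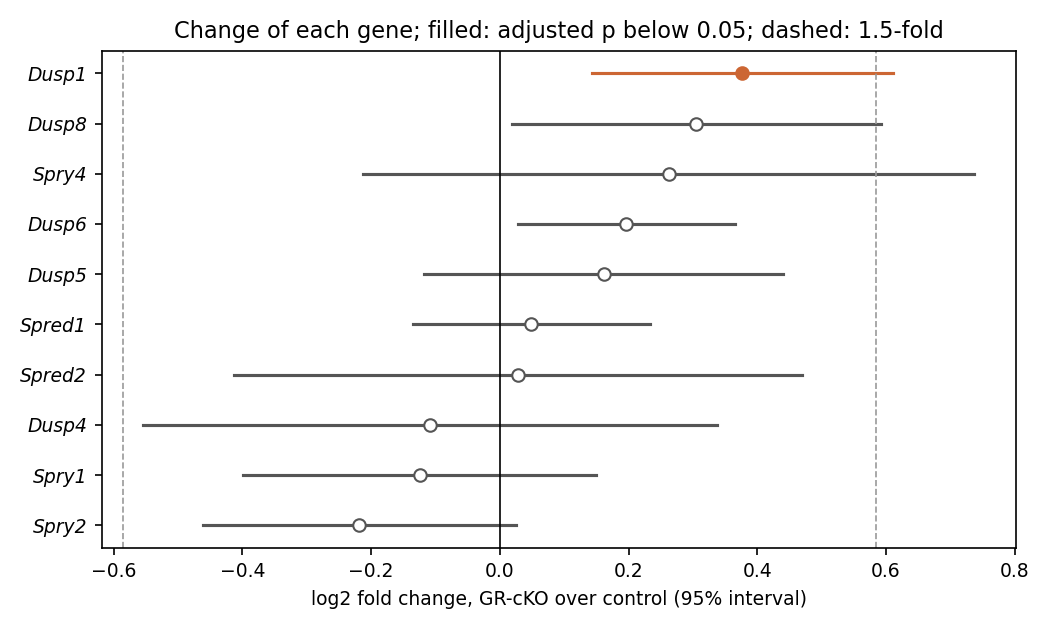
Log2 fold change of each of the 10 genes, GR-cKO over control, with its 95% interval. Dusp1 is the filled point past the threshold, and the intervals of 7 genes lie between the dashed lines at a 1.5-fold change in either direction.

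The promoters of 8 of the 10 genes were in the RefSeq table used (build GRCm38.p6), which gives 250 bases before to 50 bases after the annotated start. Dusp4 and Spry4 were not among them. Both strands were searched for the cAMP response element TGACGTCA and its short form TGACG, the ETS core CCGGAA, the glucocorticoid receptor element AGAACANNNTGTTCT and the CArG box of serum response factor. The windows with a full cAMP response element (Dusp1 and Dusp8) or a CArG box (Dusp5) are shown, since these are elements through which second messengers and serum act on early genes. Capitals mark matches to the cAMP response element, its short form or the CArG box, and each window reads 5' to 3' along its gene, at chr17:26508423-26508722 (minus strand), chr7:142095235-142095534 (minus strand) and chr19:53528895-53529194 (plus strand).
Dusp1: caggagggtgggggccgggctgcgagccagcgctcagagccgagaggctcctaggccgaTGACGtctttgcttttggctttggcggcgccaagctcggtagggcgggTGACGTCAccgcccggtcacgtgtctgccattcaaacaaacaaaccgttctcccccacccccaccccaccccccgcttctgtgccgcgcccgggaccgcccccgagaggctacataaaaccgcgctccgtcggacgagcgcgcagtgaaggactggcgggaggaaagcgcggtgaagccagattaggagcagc
Dusp8: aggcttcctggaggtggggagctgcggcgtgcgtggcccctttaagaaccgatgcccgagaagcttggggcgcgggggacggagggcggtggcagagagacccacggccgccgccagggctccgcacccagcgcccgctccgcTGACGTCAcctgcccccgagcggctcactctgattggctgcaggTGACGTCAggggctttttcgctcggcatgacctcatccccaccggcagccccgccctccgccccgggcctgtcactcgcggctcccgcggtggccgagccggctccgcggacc
Dusp5: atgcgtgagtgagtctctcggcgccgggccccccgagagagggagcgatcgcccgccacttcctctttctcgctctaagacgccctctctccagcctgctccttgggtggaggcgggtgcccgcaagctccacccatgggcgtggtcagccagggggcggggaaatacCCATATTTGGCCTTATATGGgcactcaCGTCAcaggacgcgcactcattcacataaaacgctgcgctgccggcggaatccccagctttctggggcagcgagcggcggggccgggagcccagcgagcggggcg

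The full cAMP response element was found in 2 of the 8 windows, and in 588 of 32851 promoters of the table (1.79%). Its first base lay at -143 from the start in Dusp1 and at -107 and -63 in Dusp8. Each full element holds the short form on both strands. The short form was found in 4 of the 8 (Dusp1, Dusp5, Dusp8 and Spred2) and in 20.8% of all promoters. In Dusp1 a further copy of it lay at -191, and in Dusp5 it lay at -55. The Dusp5 window held CArG boxes that began at -82 and -72, side by side, and a CArG box was found in 1.63% of all promoters. The ETS core was in 1 of the 8, Spry2, and in 14.9% of all promoters. The glucocorticoid receptor element was in none of the 8 and in 3 of the 32851 promoters. An exact match is so rare that its absence from 8 windows carries no information. A match describes letters in this window and is not a measured binding site.

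The Sprouty genes lay on either side of no change. Sprouty proteins are themselves induced by growth factors and hold back the signal from receptor tyrosine kinases to ERK. Spry2 (ENSMUSG00000022114, chromosome 14, 105891947 to 105896819, minus strand) was the most abundant of the 3 in every library, at 31.4, 31.1 and 29.0 CPM in the controls and 25.4, 30.1 and 23.1 CPM in GR-cKO. GR-cKO replicates 1 and 3 stood under the controls and GR-cKO replicate 2 among them. The log2 fold change of -0.22 ± 0.12 (SE, edgeR adjusted p = 0.253) was the lowest of the 10 genes. Spry1 (ENSMUSG00000037211, chromosome 3, 37639947 to 37644598, plus strand) read 17.5, 18.4 and 19.0 CPM in the controls and 16.0, 16.2 and 18.1 CPM in GR-cKO. The groups overlapped through GR-cKO replicate 3 (log2 fold change -0.12 ± 0.13 SE, edgeR adjusted p = 0.626). Gm42922, annotated on the opposite strand of Spry1, averaged 0.808 ± 0.408 CPM in the controls and 1.18 ± 0.903 CPM in the GR-cKO libraries. Its part in the Spry1 counts was not tested.

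Spry4 (ENSMUSG00000024427, chromosome 18, 38586247 to 38601415, minus strand) had the lowest mean of the 10 genes in both groups. It read 4.94, 5.76 and 4.64 CPM in the controls and 5.38, 6.87 and 6.18 CPM in GR-cKO, from 94 to 138 counts a library. The groups overlapped, and the log2 fold change of 0.26 had an interval from -0.21 to 0.74 (edgeR adjusted p = 0.532). Spry4 lies 809.13 kb from Nr3c1, the targeted gene, on the same chromosome.

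The Spred proteins carry a Sprouty-related domain and bring neurofibromin, the RAS inactivator encoded by Nf1, to the membrane. Spred1 (ENSMUSG00000027351, chromosome 2, 117121374 to 117182279, plus strand) was second in level after Dusp6 in both groups. It read 49.2, 52.2 and 52.3 CPM in the controls and 54.7, 50.8 and 53.5 CPM in GR-cKO. The groups overlapped, and its log2 fold change of 0.05 had a narrow interval, from -0.13 to 0.23. Spred2 (ENSMUSG00000045671, chromosome 11, 19924375 to 20024026, plus strand) read 7.14, 7.68 and 8.54 CPM in the controls and 6.60, 6.72 and 10.6 CPM in GR-cKO. GR-cKO replicate 3 stood above all other libraries and the other GR-cKO libraries below all controls. The GR-cKO coefficient of variation was 28.3%, against 7.86% from counting alone, and the log2 fold change of 0.03 became -0.22 without GR-cKO replicate 3.

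For 7 of the 10 genes the 95% interval of the difference lay within a 1.5-fold change in either direction. The exceptions were Dusp1, Dusp8 and Spry4. The fold changes ranged from 0.859 for Spry2 to 1.30 for Dusp1, and their median SE was 0.13 on the log2 scale, against 0.15 over all tested genes. A p that misses the threshold does not show that a level was unchanged, and the intervals give the sizes that these libraries still allow.

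In control the order of the levels was Dusp6, Spred1, Dusp1, Spry2, Dusp8, Spry1, Dusp5, Spred2, Dusp4 and Spry4. Neighbours whose libraries overlapped were Spry2 and Dusp8, Spry1 and Dusp5, Spred2 and Dusp4, and Dusp4 and Spry4. In GR-cKO the order was Dusp6, Spred1, Dusp1, Dusp8, Spry2, Dusp5, Spry1, Spred2, Dusp4 and Spry4. There Dusp8 stood above Spry2 and Dusp5 above Spry1 with no overlap between the libraries, pairs that had overlapped in control. The first 3 and the last 3 places were held by the same genes in both groups.

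Summed over the 10 genes, the level was 266.3, 269.7 and 265.9 CPM in the controls and 291.4, 285.4 and 301.6 CPM in GR-cKO. The GR-cKO libraries all stood higher, by a ratio of 1.10 between the means of 267 ± 2.08 and 293 ± 8.22 CPM. The sum rose mainly through Dusp1 (35.2 to 45.7 CPM), Dusp6 (68.5 to 78.5 CPM) and Dusp8 (26.6 to 32.8 CPM). The means of Dusp4, Spry1 and Spry2 were lower in GR-cKO. The sum is given as a description with no test. The 3 nuclear inducible phosphatases Dusp1, Dusp4 and Dusp5 summed to 59.3 ± 2.79 CPM in the controls and 71.3 ± 8.06 CPM in GR-cKO, and GR-cKO replicate 2, at 62.2 CPM, lay within the control range. The 3 Sprouty genes summed to 53.9 ± 1.30 CPM in the controls and 49.1 ± 3.49 CPM in GR-cKO, and the groups overlapped, with GR-cKO replicate 2 at 53.1 CPM and control replicate 3 at 52.6 CPM. Their share of the sum of the 10, a sum that was itself higher in GR-cKO, was 19.8% to 20.5% in control and 15.7% to 18.6% in GR-cKO. The Spred pair summed to 59.0 ± 2.36 and 61.0 ± 3.31 CPM.

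**Figure D4:**
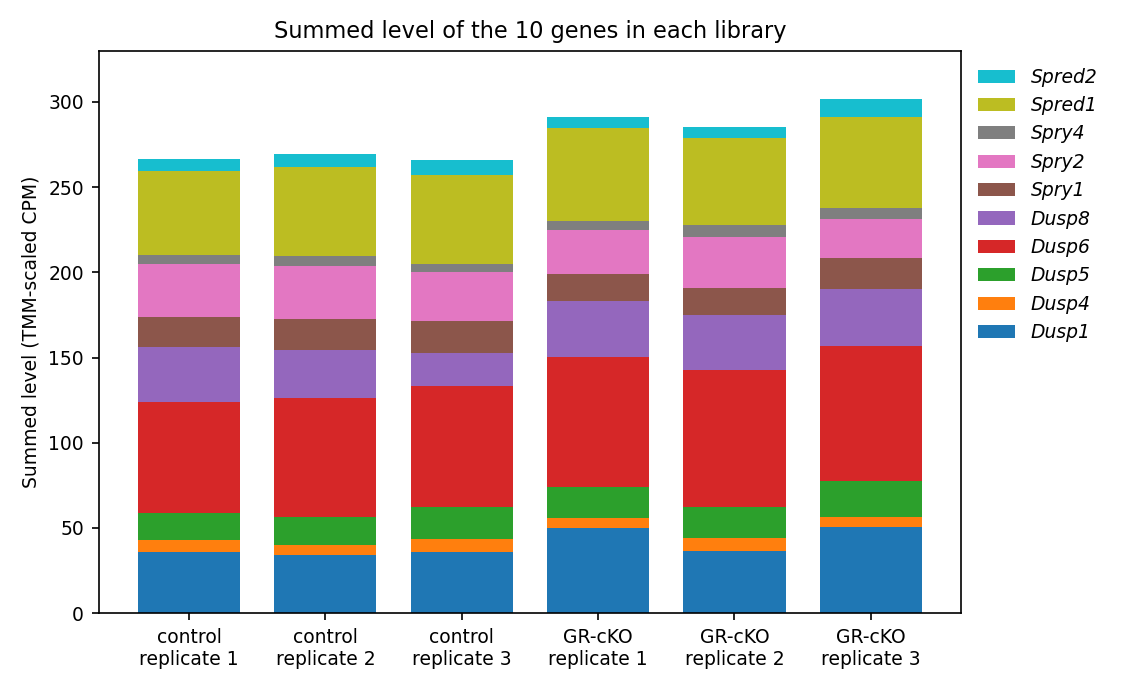
Level of the 10 genes in TMM-scaled CPM, stacked for each of the 6 libraries. The GR-cKO bars reach 285.4 to 301.6 CPM and the control bars 265.9 to 269.7 CPM, and the Dusp6, Spred1 and Dusp1 segments are the tallest in every group mean.

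The rest of the family and of the pathway is given from 7 lists of genes. The share called was 21.4% of the other phosphatases, 25% of the brakes, 27.8% of the ligands and receptors and 8.70% of the RAS-ERK cascade. It was 0% for p38, JNK and ERK5 and 50% each for the ERK-responsive and glucocorticoid-induced lists, against 14.8% of all tested genes. The lists were chosen with earlier results of these data known, so these shares are descriptions. Among 14 other dual-specificity phosphatases, 2 were called higher and 1 lower, with a median log2 fold change of 0.04. Dusp2, a nuclear phosphatase of ERK and p38 best known from activated lymphocytes, read 4.12, 5.06 and 4.15 CPM in the controls and 19.9, 20.1 and 18.7 CPM in GR-cKO. All GR-cKO libraries stood far above all controls, and the level was 4.40-fold higher (log2 fold change 2.14 ± 0.17 SE, edgeR adjusted p = 2.02e-09). Its level in GR-cKO, 19.6 ± 0.726 CPM, was close to that of Dusp5, at 19.3 ± 1.69 CPM. Together with Dusp2, the nuclear inducible phosphatases summed to 63.7 ± 2.39 CPM in the controls and 90.9 ± 7.53 CPM in GR-cKO, a ratio of 1.43. Dusp2 is not among the 10 genes and was added with its change known, so this ratio follows from its choice. Without Dusp2 the ratio was 1.20 and the groups overlapped. Of the 4 leukocyte markers tested, 2 were called higher and 0 lower, and their part in the Dusp2 result was not tested. The called markers were Lyz2 (12.9 ± 2.25 to 40.6 ± 9.66 CPM) and Tyrobp (0.195 ± 0.149 to 1.72 ± 0.410 CPM). Ptprc, which marks all leukocytes, was too low to be tested. It was at 0.0156 ± 0.0271 CPM in the controls and 0.407 ± 0.540 CPM in GR-cKO, where GR-cKO replicate 3 alone read 1.03 CPM. Dusp3, an atypical phosphatase of ERK and JNK, was called higher (93.1 ± 2.99 to 113 ± 10.2 CPM, edgeR adjusted p = 0.0208) and Dusp18 lower (32.6 ± 1.73 to 25.4 ± 2.44 CPM, edgeR adjusted p = 0.0337). With ERCC scaling 3 of the 14 were called higher and 0 lower. The count of calls was 2 without control replicate 2 or control replicate 3, and 1 without GR-cKO replicate 1 or GR-cKO replicate 2.

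Of 16 other brakes on receptors and RAS, 2 were called higher and 2 lower, with a median log2 fold change of -0.01. Errfi1, an inhibitor of the EGF receptor that growth factors and steroids induce, rose from 17.4 ± 3.01 to 29.5 ± 4.19 CPM (log2 fold change 0.76 ± 0.14 SE, edgeR adjusted p = 0.000324). Rasa3, which inactivates RAS, rose from 50.3 ± 1.95 to 62.5 ± 3.26 CPM (edgeR adjusted p = 0.0161). Il17rd, also known as Sef and an inhibitor of FGF signalling often expressed together with Sprouty genes, fell from 14.0 ± 3.79 to 9.03 ± 2.20 CPM (edgeR adjusted p = 0.0367), with GR-cKO replicate 3 above control replicate 1. Erf, a repressor that ERK removes from the nucleus, fell from 93.0 ± 12.3 to 72.5 ± 12.6 CPM (edgeR adjusted p = 0.0260). With ERCC scaling 2 of the 16 were called higher and 0 lower. The count of calls was 2 without control replicate 1 or GR-cKO replicate 2, and 1 without GR-cKO replicate 1.

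Among the 18 tested ligands and receptors, 2 were called higher and 3 lower, with a median log2 fold change of -0.06. Kit, the receptor of stem cell factor, rose from 3.41 ± 0.510 to 7.96 ± 1.16 CPM (edgeR adjusted p = 0.000650), and Fgf2, the basic fibroblast growth factor, rose from 13.3 ± 0.780 to 19.6 ± 1.02 CPM (edgeR adjusted p = 0.00613). Fgfrl1, an FGF receptor without a kinase domain, fell from 102 ± 6.30 to 80.5 ± 2.96 CPM (edgeR adjusted p = 0.00376). Fgfr2 fell from 31.1 ± 1.68 to 23.5 ± 3.75 CPM (edgeR adjusted p = 0.0261), and Erbb2, the neuregulin co-receptor, from 34.9 ± 2.12 to 27.2 ± 4.55 CPM (edgeR adjusted p = 0.0498). With ERCC scaling 4 of the 18 were called higher and 0 lower. The count of calls was 3 without control replicate 2 or GR-cKO replicate 1, and 7 without GR-cKO replicate 3.

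Of the 23 genes of the RAS-ERK cascade, 1 was called higher and 1 lower, with a median log2 fold change of -0.02. Map2k1, which encodes the ERK kinase MEK1, read 37.7, 40.4 and 39.9 CPM in the controls and 72.3, 63.3 and 78.5 CPM in GR-cKO. The groups were far apart (log2 fold change 0.86 ± 0.10 SE, edgeR adjusted p = 4.84e-07). Rps6ka2, an S6 kinase activated by ERK, fell from 24.4 ± 2.46 to 18.6 ± 1.94 CPM (edgeR adjusted p = 0.0447). Rps6ka2 lost its call with ERCC scaling, and the list had 1 call in each fit without control replicate 1 or 2 or without any 1 of the GR-cKO libraries. Of the 19 genes of the p38, JNK and ERK5 cascades, edgeR and DESeq2 each called 0, and 3 had an unadjusted edgeR p under 0.05. The pair with the smallest p was Mapk10, a JNK gene known from brain and heart, at 2.55 ± 0.459 against 0.995 ± 0.527 CPM (edgeR adjusted p = 0.0628), and Map2k4, at 50.2 ± 2.96 against 43.1 ± 1.27 CPM (edgeR adjusted p = 0.125).

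Transcripts known to respond to ERK moved in both directions. Of 16, 5 were called higher and 3 lower, with a median log2 fold change of 0.17. Ier3, an immediate early gene, rose from 268 ± 13.2 to 440 ± 10.7 CPM (log2 fold change 0.72 ± 0.06 SE, edgeR adjusted p = 1.92e-08). The early transcription factors Junb and Egr3 rose as well, Junb from 58.0 ± 3.94 to 78.3 ± 9.97 CPM (edgeR adjusted p = 0.00232) and Egr3 from 6.97 ± 1.07 to 12.2 ± 1.35 CPM (edgeR adjusted p = 0.00318). Ccnd1, the cyclin that carries growth signals into the cell cycle, fell from 446 ± 28.4 to 253 ± 27.7 CPM (log2 fold change -0.82 ± 0.08 SE, edgeR adjusted p = 3.34e-08). Epha4 fell from 41.7 ± 1.07 to 22.7 ± 3.58 CPM (edgeR adjusted p = 6.17e-06) and Emp1 from 146 ± 7.64 to 121 ± 4.01 CPM (edgeR adjusted p = 0.0107). Etv4 and Etv5, ETS factors read beside Dusp6 and the Sprouty genes as FGF targets, were named after their values were seen. Etv4 was at 30.6 ± 1.99 and 37.5 ± 5.13 CPM and Etv5 at 28.2 ± 3.01 and 29.4 ± 0.510 CPM, and neither was called. With ERCC scaling 6 of the 16 were called higher and 2 lower.

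In a list of 10 known glucocorticoid-induced genes, 5 were called higher in GR-cKO and 0 lower, with a median log2 fold change of 0.29. Over all tested genes 7.63% were called higher. Dusp1 is known as such a gene too, and its log2 fold change was 0.38. Since the list was chosen with earlier results of these data known, it lends the Dusp1 value no support. A link between them was not tested. The largest changes were those of the metallothioneins, Mt1 from 155 ± 11.3 to 764 ± 37.6 CPM and Mt2 from 104 ± 15.6 to 728 ± 84.0 CPM (edgeR adjusted p = 6.42e-17 and 3.4e-16). Sgk1, a serum- and glucocorticoid-regulated kinase, rose from 52.4 ± 2.78 to 67.6 ± 3.77 CPM (edgeR adjusted p = 0.00472). Fkbp5, named after its values were seen, was at 21.9 ± 1.03 CPM in the controls and 20.9 ± 2.82 CPM in GR-cKO (edgeR adjusted p = 0.802).

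**Figure D5:**
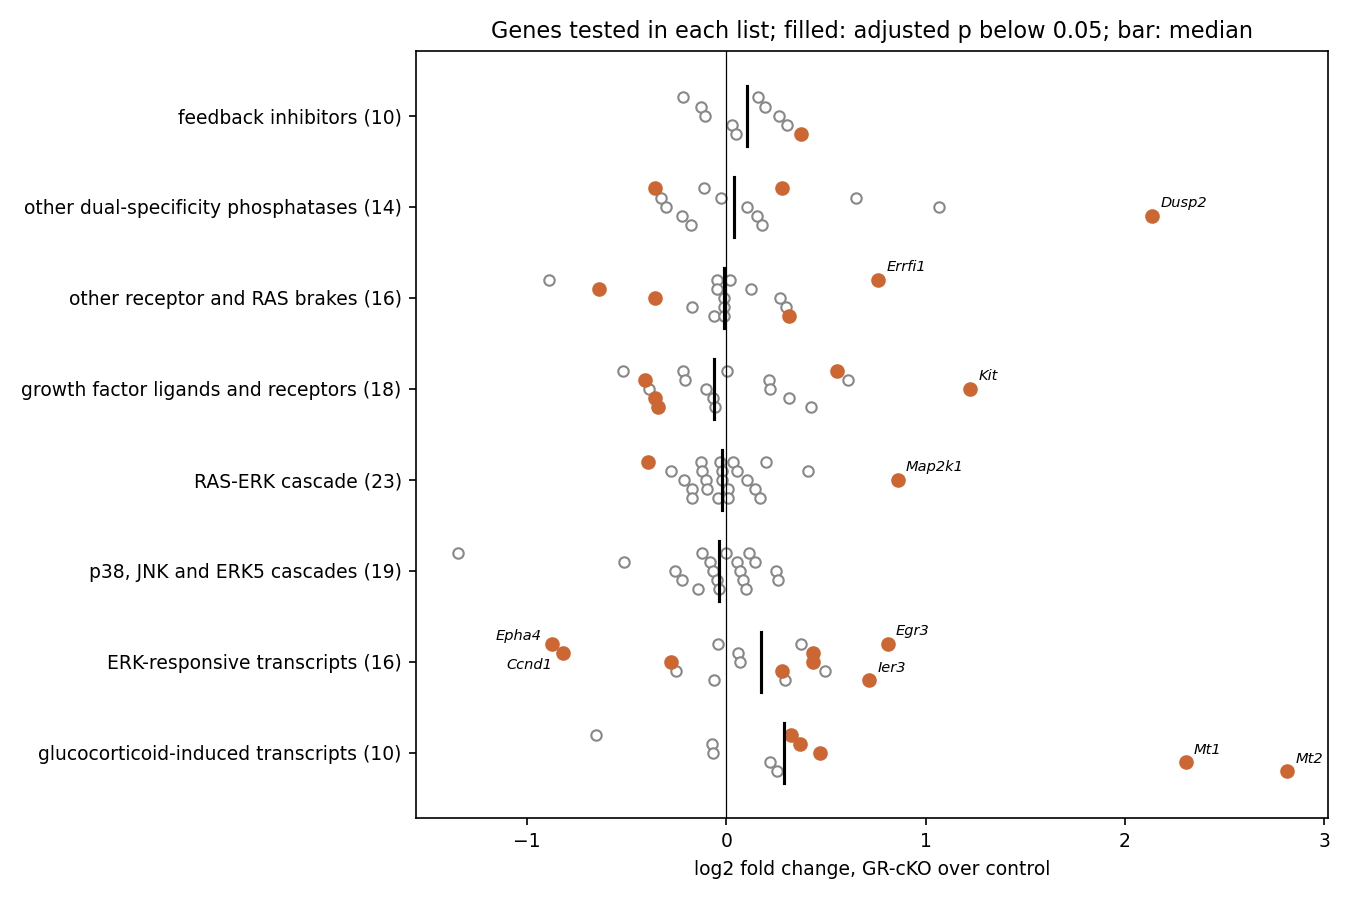
Log2 fold change, GR-cKO over control, of every tested gene in the 10 feedback inhibitors and the 7 lists, with the number of genes tested beside each name, filled points for an adjusted p below 0.05 and a bar at the median. The 10 inhibitors have 1 filled point and a median change of 0.18 in size, near the 0.20 of all tested genes. Dusp2, Map2k1 and the metallothioneins stand far from the rest of their lists.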

How the data were processed

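The authors deposited raw counts per gene, 1 table for each of 6 QuantSeq forward 3' libraries made from 100 ng of total RNA, per the labels. Per the submitters' processing notes, reads were processed with tools that included STAR 2.5.4a, featureCounts 1.6.2, cutadapt 1.16 and DESeq2 1.18.1, on build GRCm38. How strand and multimapping reads were handled in counting is not given in the sources used here, so overlapping genes are uncertain. Of 52649 rows, 99 were spike-in RNAs (1.98% to 2.36% of counts) and stayed out of library sizes. Identifiers were matched to GENCODE M21 (52403 of 52550).

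GR-cKO was compared with control by edgeR 4.0.16 (quasi-likelihood test, TMM, filterByExpr, R 4.3.3) with Benjamini-Hochberg adjustment over 14386 genes and a threshold of 0.05. The common biological coefficient of variation was 0.128. A count of 0 allows up to 0.133 to 0.155 CPM (3 counts, counting error only). No 2 libraries were copies: the squared count differences between libraries of a group were, at the median, 5.48 to 8.16 times those from sampling noise. The fit was tested on simulated data. Alternatives were DESeq2 1.42.0, 2 other scalings, 2 other filters, the replicate number as a block, no sex chromosomes and leaving out each library.

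The genes and lists were chosen with earlier results of these data known. Named were the 10 genes, Nr3c1, Xist, up to 3 called genes per list and direction by smallest p (with none called, 2 by smallest p), and up to 2 markers per list by level. Genes added after their values were seen are marked as such, besides Ergic1, Gm42922, Ptprc and Tyrobp.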

Additional observations from a re-analysis of the deposited data

How the results depend on the processing

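Over 13 alternatives, 123 of 130 values of the 10 genes kept their direction and their side of the threshold, 4 lost the call (all Dusp1, with 1 library left out), 1 gained it and 2 reversed. The reversed values were those of Spred2, at -0.03 without control replicate 1 and -0.22 without GR-cKO replicate 3, with 0.15 as the highest of its leave-out fits. The log2 fold change of Dusp1 was 0.30 to 0.51 over these fits, 0.48 with ERCC scaling and 0.36 with a replicate block, and its adjusted p ranged from 0.00271 to 0.133 over all alternatives. Between 0 and 1 of the 10 genes was called higher in the leave-out fits, and without control replicate 1 that gene was Dusp8. Leave-out counts were 1 to 3 for the other phosphatases, 1 to 3 for the receptor and RAS brakes, 3 to 7 for ligands and receptors and 1 to 2 for the RAS-ERK cascade. ERCC scaling gave 2 calls among the brakes and 1 in the RAS-ERK cascade, where DESeq2 also gave 1. The p38, JNK and ERK5 list had 1 call without the filter on low counts and 1 with the block. Over all genes, 1572 to 1879 were called in the leave-out fits, 2353 with the replicate block, 2091 with DESeq2 and 2132 as reported. The cause of these shifts was not tested. In the leave-out fits the group left with 2 libraries shares edgeR's pooled estimate of the spread. Same-numbered libraries did not deviate together (correlations of at most 0.04), so the numbers were not taken as pairs. Counts were lowest for Dusp4, Spry4 and Spred2, at 94 to 205 a library. For Spred2 the GR-cKO coefficient of variation, 28.3%, was far above the 7.86% from counting alone.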
